A study of Mus musculus with 18 samples.

Results

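The cytosolic ribosomal proteins are the protein part of the ribosome outside mitochondria, and they were taken here as the rows of the deposited gene table whose symbol is a plain Rpl or Rps name, Rplp0, Rplp1, Rplp2 or Rpsa. The rule found 88 of 33977 genes, 53 with large subunit names and 35 with small subunit names. Of these, 83 have a protein-coding transcript in the table, 4 are annotated only as processed pseudogenes (Rps3a2, Rps3a3, Rpl6l and Rpl32l) and Rps4l is annotated as a transcribed pseudogene. A further 242 rows carry the symbol of a member with a -ps suffix for a pseudogene copy, and they are described beside the members but are not members.

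Every ribosome holds a single copy of nearly all of these proteins, so their genes are transcribed at closely matched levels in growing cells. Their mRNAs usually begin with a C followed by a run of pyrimidines, the 5′ terminal oligopyrimidine tract, through which mTOR signalling sets how strongly they are translated. In the colon, ribosome production is high in the dividing cells of the crypt base and in secretory cells. Mammalian genomes carry many retrotransposed copies of these genes, most of them without a known function.

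The tissue was colon of ICR mice, an outbred laboratory strain, and the 18 libraries formed 6 groups of 3. The tea groups, JHHCGX and JHHCGC, received Jinhua Hecha, a fermented green tea. The capsule groups, FFZRX and FFZRC, received a compound Suanzaoren (jujube kernel) capsule, and the saline groups, NCX and NCC, received saline. Every treatment lasted 44 days, and all mice carried the same strain background with no transgene named. The labels do not state what the letters X and C mean, so the libraries are called set X and set C. The design text names 3 mice for each treatment, while each treatment has 6 libraries and none is tied to a mouse, so p-values measure spread between libraries and this spread may be technical. The sources used here give neither the age nor the sex of the mice.

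Depth was 59206980 to 76830278 counts per library. Levels are given as CPM, read counts scaled to library size with TMM factors over all 18 libraries. Different genes are ranked by FPKM, which divides by gene length. Subunit ratios, sums over members and levels of pseudogene copies are in counts or CPM and are not corrected for length. The colon markers (9 genes of colon epithelium) were present in every group, with a summed level of 8979.3 CPM in the lowest NCX library and 21523 CPM in the highest JHHCGX library. Transcripts of neighbouring or other tissues were uneven: 7 lung markers summed to 199.56 to 230.33 CPM in NCC and to 1.7355 to 2.6121 CPM in FFZRC, where 4 of the 7 were at 0 in the whole group. Likewise, 6 cartilage markers summed to 129.55 to 158.25 CPM in NCC, against at most 3.0913 CPM in FFZRC and at most 2.8005 CPM in JHHCGC, with 4 of the 6 at 0 in each of those 2 groups. In 6 libraries mitochondrial transcripts took more than 12% of counts (12.2 to 24.9%), against 5.48 to 11.1% in the other 12. These 6 are JHHCGX_256, NCX_134, NCX_147, JHHCGC_48, FFZRC_24 and NCC_17, and for most comparisons a value without them is given. None is given for tea against capsule of set X, for set X against set C or for any difference among the 6 groups.

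The tract described above was looked for at the annotated transcription start of members, and a minority held it there. RefSeq promoters of GRCm38.p6 were matched by symbol for 64 of the 88 members. A C at the annotated start followed by at least 4 further C or T bases, a tract of at least 5, was found on the gene's strand in 14 of these 64 genes, or 21.9%. A gene with several annotated starts was counted by its longest tract, and the 14 include the processed pseudogene Rpl32l. The same letters stood at the annotated start of 3.01% of the 27025 genes with a promoter in the table. A run of at least 8 C or T bases anywhere from 30 bases before to 50 bases after the start was found in 78.1% of the members and in 32.3% of all genes. A match is a description of these letters and not of a start measured in this tissue. The 6 windows below come from those 14 genes and were chosen because they hold the tract at the annotated start. Each runs from 10 bases before the start to 20 bases from it, 5′ to 3′ on the gene's strand, with the tract in capitals.
Rps6 (chr4:86857348-86857377, minus strand): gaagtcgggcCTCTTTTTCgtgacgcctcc
Rpl28 (chr7:4792955-4792984, plus strand): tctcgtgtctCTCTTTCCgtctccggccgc
Rpl38 (chr11:114668570-114668599, plus strand): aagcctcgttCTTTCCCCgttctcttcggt
Rpl15 (chr14:18270967-18270996, minus strand): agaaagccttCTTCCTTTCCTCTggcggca
Rps21 (chr2:180257369-180257398, plus strand): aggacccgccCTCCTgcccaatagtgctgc
Rps27 (chr3:90213629-90213658, minus strand): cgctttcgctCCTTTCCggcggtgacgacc
In Rpl15 the tract was 13 bases long, and in Rps21 it was 5. Another annotated start of Rps21, at chr2:180257449, held no such tract. The windows of Rpl41 and Rps28, which figure largely in the results, held no such tract at the annotated start. They are given for comparison, with no capitals.
Rpl41 (chr10:128549149-128549178, minus strand): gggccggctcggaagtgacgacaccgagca
Rps28 (chr17:33824543-33824572, minus strand): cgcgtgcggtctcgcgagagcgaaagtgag

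The members together took between 0.907 and 5.07% of a library's counts, a 5.59-fold range. In set X the share was 4.24, 2.68 and 1.94% in tea libraries, 3.24, 1.78 and 2.53% in capsule libraries and 3.79, 1.298 and 1.13% in saline libraries. In set C it was 4.33, 3.74 and 1.16% in tea libraries, 2.96, 3.20 and 0.907% in capsule libraries and 2.82, 5.07 and 1.82% in saline libraries. Every pair of groups overlapped. In bulk tissue, fewer cells of a type and less RNA per cell cannot be told apart. The group means were 2.95 ± 1.17% for JHHCGX, 2.52 ± 0.727% for FFZRX, 2.07 ± 1.49% for NCX, 3.08 ± 1.69% for JHHCGC, 2.36 ± 1.26% for FFZRC and 3.24 ± 1.67% for NCC (SD, n = 3 each). No p-value is given for this sum, because the members were chosen with earlier results known.

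The share of counts in members moved with the mitochondrial share. The 6 libraries over 12% mitochondrial held 0.907 to 1.94% of counts in members, with a median of 1.23%, and the other 12 held 1.78 to 5.07%, with a median of 3.22%. Leaving mitochondrial rows out of the total kept a wide range, 1.21 to 5.46%. Dividing crypt cell markers summed to 66.6 to 145.1 CPM in the 6 libraries and to 133.6 to 389.4 CPM in the other 12. Goblet cell markers summed to 191 to 1144 CPM in the 6 and to 1816 to 16447 CPM in the other 12. Absorptive colonocyte markers went the other way and overlapped, with 6518 to 16329 against 4373 to 12190 CPM. The part of these markers in the members' share was not tested. The comparisons below were also run without the 6 libraries and with the mitochondrial share as a covariate.

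**Figure D1:**
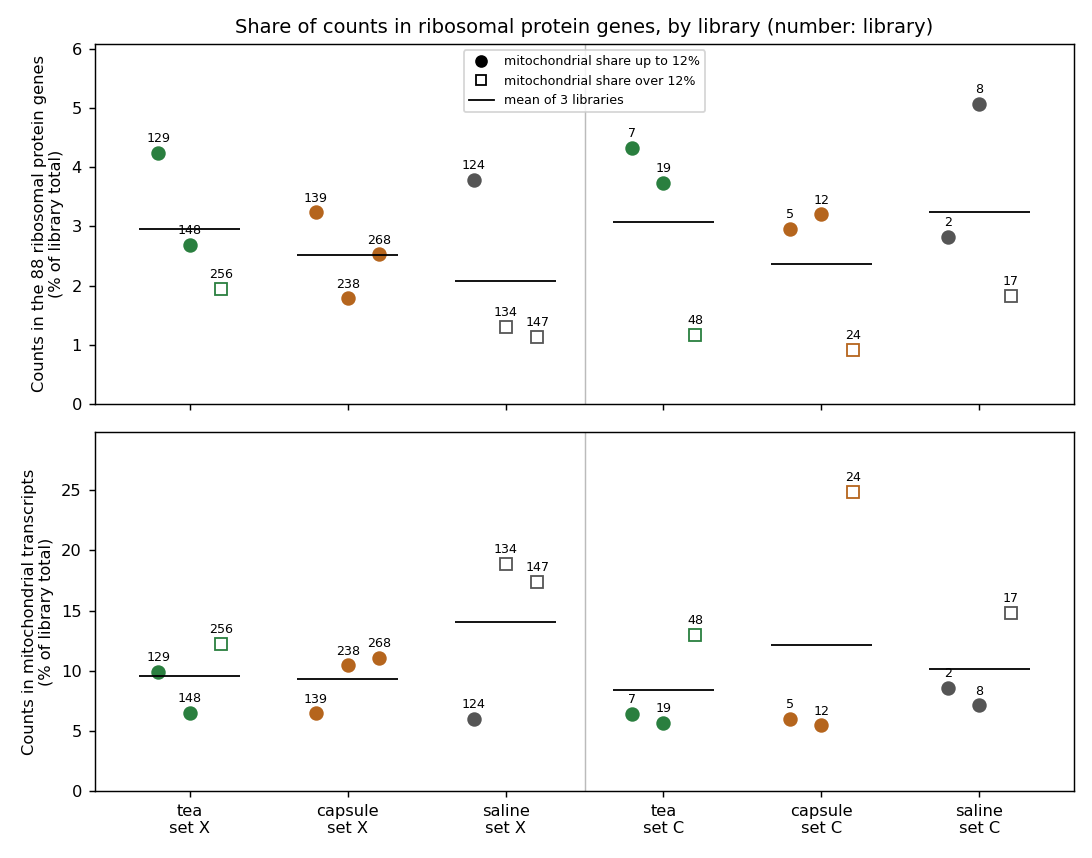
Percent of each library's counts in the 88 members (upper panel) and in mitochondrial transcripts (lower panel) for the 6 groups of 3 libraries; open squares mark the 6 libraries with a mitochondrial share over 12%, lines mark means of 3. The open squares sit between 0.907 and 1.94% in the upper panel, and saline of set X holds 2 of them.

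The subunits kept their proportion. Large subunit members held 1.36 to 1.53 times the counts of small subunit members in every library, a 1.13-fold range over libraries whose total share ranged 5.59-fold. This ratio was 1.42 ± 0.0486 in JHHCGX, 1.47 ± 0.0647 in FFZRX, 1.40 ± 0.0394 in NCX, 1.44 ± 0.0644 in JHHCGC, 1.47 ± 0.0506 in FFZRC and 1.43 ± 0.0370 in NCC (SD, n = 3 each), and the groups overlapped.

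Of the 88 members, 85 had a count in all 18 libraries and 69 had more than 1000 counts in each. The exceptions were Rpl3l, Rpl10l and Rpl39l, which had no count in 6, 17 and 13 libraries. Per length, 48 members averaged more than 100 FPKM, 31 lay between 10 and 100 FPKM and 9 lay below 10 FPKM, with a median of 110.6 FPKM. The 5 highest mean FPKM values belonged to Rplp0, the scaffold of the ribosomal stalk, with 865 FPKM, to Rps3a1 with 799 FPKM, to Rps15 with 680 FPKM, to Rplp1, an acidic stalk protein, with 654 FPKM (Rplp2, its stalk partner, had 91.9 FPKM), and to Rps6, the substrate of S6 kinase, with 485 FPKM. The 5 lowest were Rpl10l with 0.00479 FPKM, Rpl39l with 0.0266 FPKM, Rpl3l with 0.174 FPKM, Rpl21 with 0.925 FPKM and Rpl32l with 1.76 FPKM. The gene length implied by counts and FPKM was 6714 bases for Rps15a and 6699 bases for Rps24, whose coding sequences are 393 and 402 bases long, and 534 bases for Rplp1, with 345 coding bases. The order of members by FPKM depends on these lengths.

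Paralogs named after a member stood far below it in most cases. Rpl3l, the striated muscle paralog of Rpl3, had at most 0.673% of the FPKM of Rpl3 in any library, and Rpl39l and Rpl10l, known from the testis, had medians of 0% of Rpl39 and Rpl10. Rpl7l1 had 4.155 to 7.06% of the FPKM of Rpl7, and Rpl22l1, which can replace Rpl22 in the ribosome, had 14.7 to 37.5% of that of Rpl22. Rps27l, a target of p53, was the exception, with 28.7 to 246% of the FPKM of Rps27 and a median of 52.8%. Rps4l had 0.312 to 2.77% of the FPKM of Rps4x, Rpl6l had 21.6 to 29.4% of that of Rpl6 and Rpl32l had 0.341 to 1.12% of that of Rpl32.

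Members varied more between libraries than other genes did. Over the 84 members with a mean of at least 1 CPM, the median SD of log2(CPM + 0.5) across the 18 libraries was 0.628, against 0.426 over 15663 other genes with at least that mean. They varied together: the first principal component of these 84 held 70.02% of their variance and the second 13.6%. The correlation of a member's log2 CPM with the summed level of all other members over the 18 libraries was at least 0.9 in 52 of the 84, with a median of 0.94 and a lowest value of 0.495. These points share library depth and composition, and the correlations describe them with no test. The 3 members with the smallest SD were Rpl7l1 with 0.335, Rps27l with 0.428 and Rpl34 with 0.460, and the 3 with the largest were Rps3a3 with 2.42, Rps3a2 with 1.95 and Rps2 with 1.52.

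**Figure D2:**
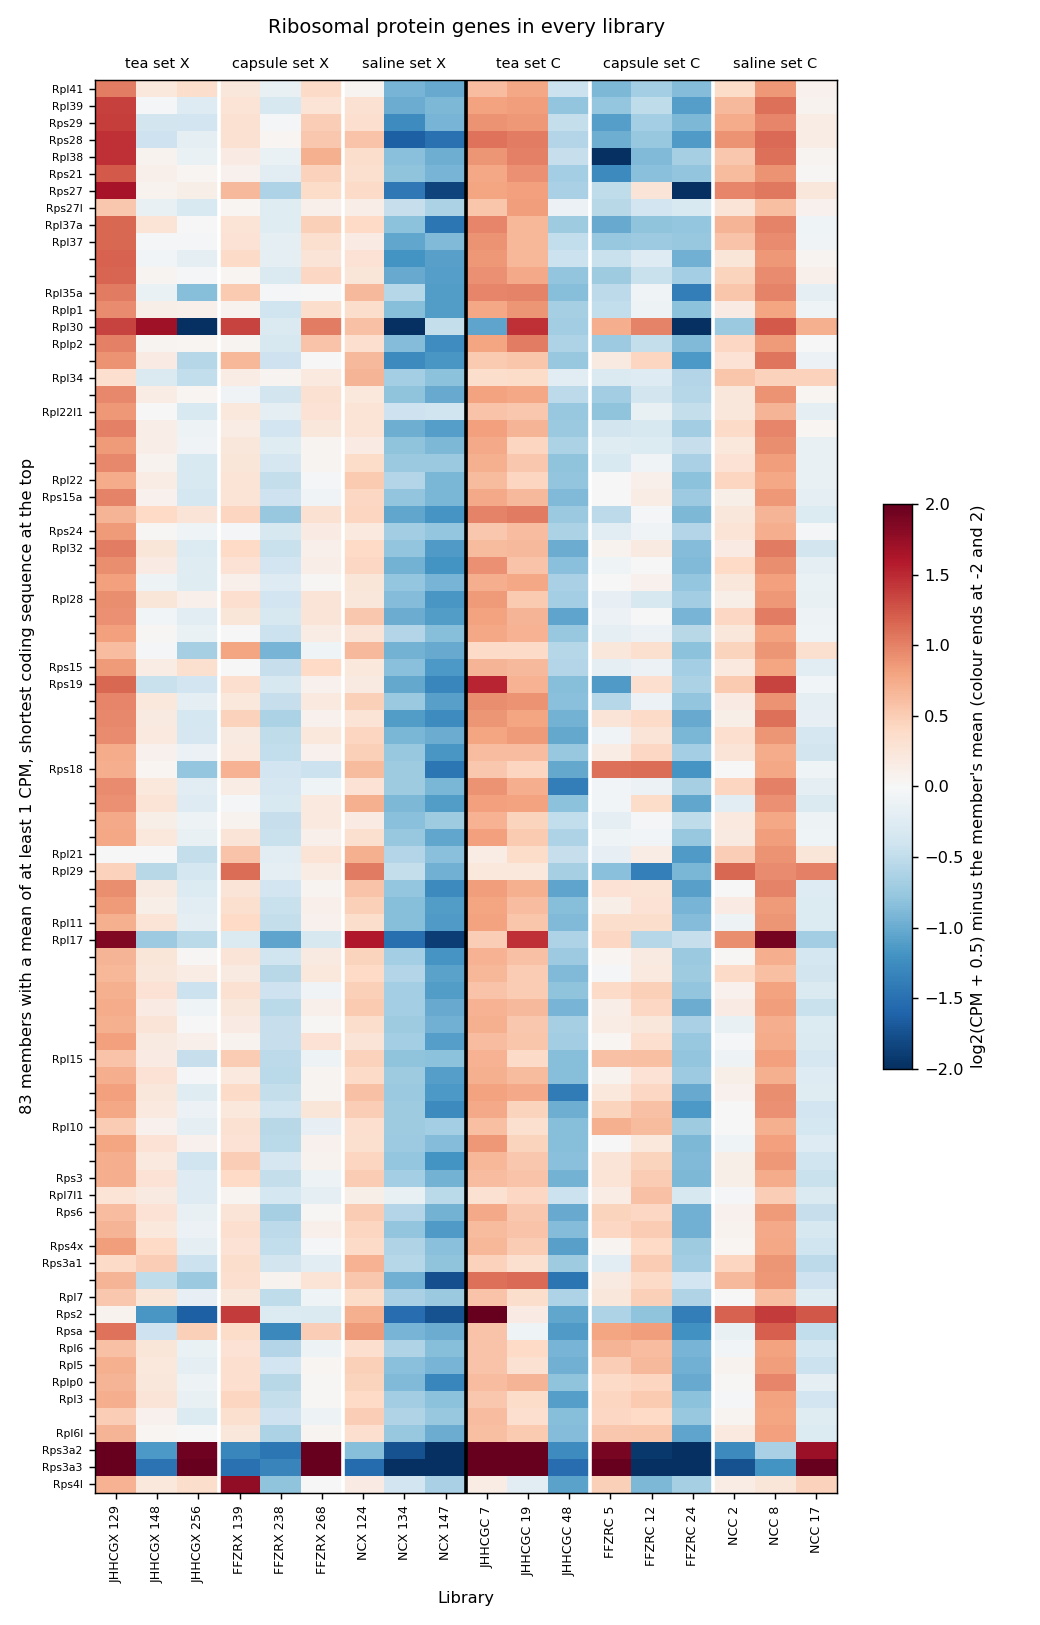
Log2(CPM + 0.5) of 83 members in each of the 18 libraries (rows described in the text carry their name), minus the member's mean over libraries, ordered by coding length with the shortest at the top and those without a coding sequence at the bottom. Columns change as blocks from top to bottom, except in FFZRC_5 and FFZRC_12, where short members are blue and long members pale red, and in rows with pseudogene copies such as Rps3a2 and Rps3a3.

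Comparisons between groups were tested with edgeR's quasi-likelihood test on counts over all genes, and a member counts as called below an adjusted p (Benjamini-Hochberg over all genes tested) of 0.05. A filter on low counts left 86 of the 88 members in every fit, and Rpl10l and Rpl39l were not tested. In none of the 10 comparisons was a member called by edgeR. The counts at an unadjusted p under 0.05 and by DESeq2 are therefore given beside the folds, and they describe values that did not pass the test.

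In set C, ribosomal protein genes had lower levels in capsule than in saline libraries on balance, and short members had a lower median than longer ones. In capsule against saline of set C, 79 of 86 members had a negative log2 fold change and 7 a positive one, with a median of -0.52 on the log2 scale, or 0.698-fold. The median of all 20964 genes tested was 0.05. No member was called, against 0.11% of all genes, and the smallest adjusted p was 0.116 (edgeR). At an unadjusted p under 0.05 there were 17 members, 19.8% of the 86, all of them lower in capsule libraries, against 4.66% of all genes that were lower and 5.75% in either direction. In 26 members (30.2%) every capsule library lay below every saline library, against 9.09% of all genes, and in 0 members did every capsule library lie above, against 4.25% of all genes. Members varied together over libraries, so counts of members, here and in the comparisons below, are not counts of independent results. The share of counts in all members overlapped between these groups.

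Rpl29, a large subunit protein also known as a heparin-binding protein, had the smallest p. Its level was 1.60, 0.950 and 1.48 CPM in capsule libraries of set C, against 7.77, 6.69 and 7.05 CPM in saline libraries. The groups did not overlap, and the log2 fold change was -2.39 ± 0.39 (SE, edgeR adjusted p = 0.116). Its level was low for a ribosomal protein, 3.29 FPKM on average, and its -ps rows held 11.4% of the combined count. Across both sets, Rpl29 had 6.69 to 7.77 CPM in NCC, FFZRX_139 and NCX_124, and at most 4.65 CPM elsewhere. Cartilage markers summed to 122.05 to 158.25 CPM in those same libraries, and to at most 6.69 CPM elsewhere. The part of such tissue in the fold of Rpl29 was not tested.

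Rps29, a zinc-binding protein of the small subunit head, had 28.5, 38.5 and 32.9 CPM in capsule libraries, against 103.9, 122.7 and 68.8 CPM in saline libraries of set C. Its log2 fold change was -1.54 ± 0.38 (SE, edgeR adjusted p = 0.344). Rps28, a neighbour of the mRNA exit channel, had 28.2, 33.0 and 25.5 CPM in capsule libraries, against 105.4, 123.7 and 62.2 CPM in saline libraries. Its log2 fold change was -1.73 ± 0.45 (SE, edgeR adjusted p = 0.367). In both genes the highest capsule library lay below the lowest saline library.

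Rpl41, the shortest protein of the ribosome at 25 amino acids, had 180.2, 209.8 and 184.0 CPM in capsule libraries, against 430.9, 615.7 and 354.5 CPM in saline libraries of set C. The log2 fold change was -1.27 ± 0.35 (SE, edgeR adjusted p = 0.414). Rps21, another short protein of the small subunit, had 30.5, 41.5 and 43.0 CPM in capsule libraries, against 115.4, 139.3 and 75.5 CPM in saline libraries. These groups did not overlap either.

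Several larger and well studied members had folds nearer to 0, and others did not. Rplp0 had 1748.5, 1806.4 and 666.8 CPM in capsule libraries, against 1370.9, 2657.4 and 1180.4 CPM in saline libraries of set C, with a log2 fold change of -0.28 ± 0.55. Rps6 had a log2 fold change of -0.15 ± 0.57, Rps3 of -0.12 ± 0.52 and Rpsa, the laminin receptor protein of the small subunit, of 0.03 ± 0.68. Rpl5 and Rpl11, which bind 5S rRNA and can hold Mdm2, had log2 fold changes of -0.01 ± 0.55 and -0.20 ± 0.53. Capsule and saline libraries overlapped in each of these 6 genes, and their adjusted p was 0.9999 (edgeR). Rps19, the gene most often mutated in Diamond-Blackfan anaemia in humans, had a log2 fold change of -1.05 ± 0.63 and also overlapped. In Rplp1, Rplp2 and Rpl28, by contrast, every capsule library lay below every saline library. Rplp2 had 108.0, 128.6 and 96.0 CPM in capsule libraries, against 237.7, 320.6 and 178.4 CPM in saline libraries.

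Coding length ordered these values. Over the 81 tested members with a coding sequence in GENCODE M21, Spearman's rho between coding length and the log2 fold change in capsule against saline of set C was 0.696, across genes that are not independent. The 10 tested members with a coding sequence of up to 300 bases (Rpl41, Rpl39, Rps29, Rps28, Rpl38, Rps21, Rps27, Rps27l, Rpl37a and Rpl37) all had negative folds, from -1.75 to -0.73 with a median of -1.43. The 71 longer members had a median of -0.44. Among genes that are not members, which were not limited to the members' range of 78 to 1260 coding bases, rho was 0.069. Of these, 411 with a coding sequence of up to 300 bases had a median of -0.22, against 0.07 for 16026 longer ones. The grouping by length was made after the values were seen and carries no test. In set C, rho over members was -0.728 in tea against capsule and 0.096 in tea against saline. In set X it was -0.581 in tea against saline, -0.493 in capsule against saline and -0.138 in tea against capsule. Over genes that are not members, rho in set C was -0.171 in tea against capsule and -0.118 in tea against saline. In set X it was -0.187 in tea against saline, -0.128 in capsule against saline and -0.116 in tea against capsule, the last close to the value of members.

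The same contrast can be read inside each library, where total share drops out. The 10 short members summed to 1.85, 2.10 and 3.84% of the level of 70 longer members in FFZRC, against 5.58, 4.33 and 5.10% in NCC. They summed to 4.31, 4.83 and 5.04% in JHHCGC. In set X they summed to 5.46, 3.78 and 4.64% in JHHCGX, to 4.06, 4.97 and 5.05% in FFZRX and to 3.53, 3.46 and 3.84% in NCX. FFZRC_5 and FFZRC_12 stood below every other library, and they are not among the 6 with a high mitochondrial share. Saline of set X also stood below most libraries, with all 3 of its values between 3.46 and 3.84%.

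**Figure D3:**
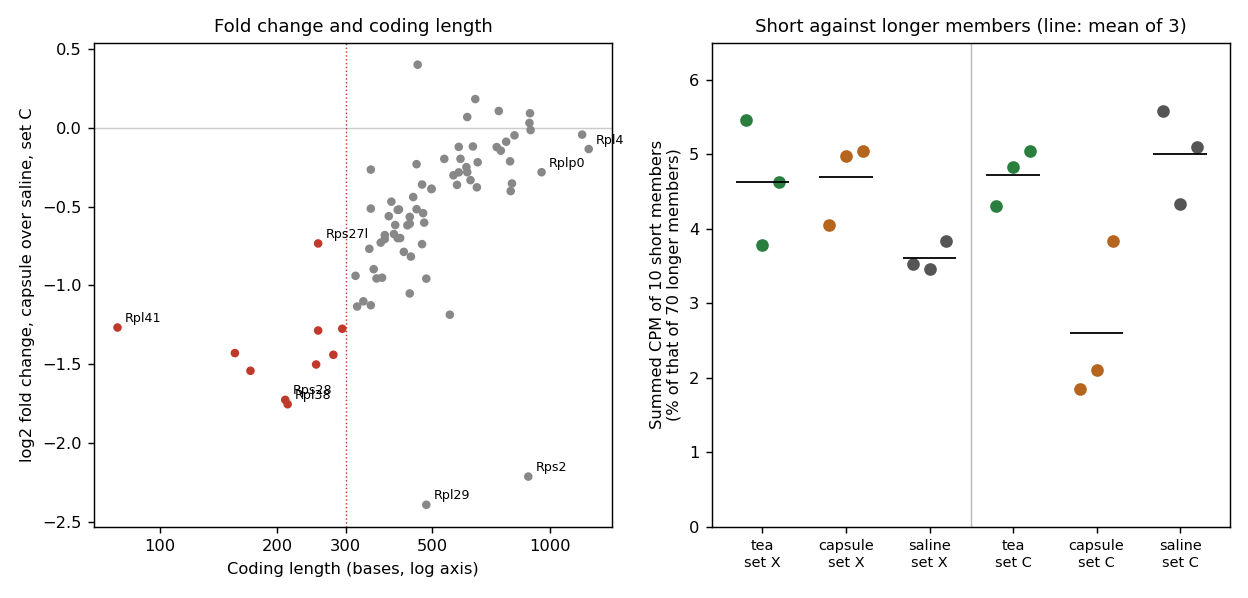
Left, log2 fold change of members in capsule against saline of set C by coding length (log axis), with members up to 300 bases in red; the 2 lowest points are Rpl29 and Rps2, and Rpl3l, which averaged under 1 CPM, is not drawn. Right, the summed CPM of 10 short members as a percent of that of 70 longer members in each library, where the 3 capsule libraries of set C lie at 1.85, 2.10 and 3.84% and the 3 saline libraries at 4.33 to 5.58%.

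Other settings called some of these members. DESeq2 called 6 members in capsule against saline of set C, Rps29, Rps21, Rpl29, Rpl34, Rps28 and Rpl41, all lower, against 1.37% of all genes. Without the 6 libraries of high mitochondrial share edgeR called 7, Rps29, Rps21, Rpl37, Rpl37a, Rpl29, Rps28 and Rpl39, all lower, against 1.01% of all genes, and the median stayed at -0.52. That fit leaves 2 libraries in each group of set C. With the mitochondrial share as a covariate edgeR called Rpl29 and Rps27, against 0.372% of all genes. Rpl29 alone was called by limma on log2(FPKM + 1), against 0.666% of all genes, and on log2(FPKM + 0.1), against 0.587%. Rpl29 alone was also called by edgeR without JHHCGC_48, against 0.123% of all genes, and without FFZRC_24, against 1.1%. Leaving out 1 library at a time gave a median between -0.76 (without NCC_17) and -0.30 (without NCC_8), and it was -0.32 without FFZRC_24. Lung, cartilage, adipocyte and skeletal muscle markers also stood lower in capsule than in saline libraries of set C, with adipocyte markers at 18.602 to 67.301 CPM in FFZRC against 595.76 to 763.4 CPM in NCC. The 5 red blood cell markers summed to 24.253 to 29.502 CPM in FFZRC, against 73.178 to 95.187 CPM in NCC. Other lists went the other way: B cell, T cell and plasma cell markers all had positive folds, with medians of 1.33, 1.34 and 1.02. Goblet cell markers had 6 positive and 2 negative folds, with a median of 0.75. Dividing crypt cell markers had 7 positive and 2 negative folds, with a median of 0.23. None of the markers in these higher lists was called. The part of all these markers in the members' folds was not tested.

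Tea against saline of set C left the median of the family at 0.00. Positive and negative folds were 43 each of 86, where the median of all genes was 0.01. With 1 library left out the median lay between -0.26 (without JHHCGC_7) and 0.35 (without NCC_8), and scaling by library totals alone gave 18 positive folds. Without the 6 libraries of high mitochondrial share the median was 0.13 with 70 positive folds, and with the share as a covariate it was -0.24 with 4 positive folds. Limma on log2(FPKM + 1) gave -0.15 with 7 positive folds of 85. Called members numbered 0, against 0% of all genes, and 1 member, Rpl29, had an unadjusted p under 0.05, against 3.19% of all genes. Rpl29 had 3.84, 3.85 and 1.86 CPM in tea libraries, below every saline library, with a log2 fold change of -1.14 ± 0.37 (SE, edgeR adjusted p = 0.9999). In 4 members (4.65%), Rpl3l, Rpl29, Rpl34 and Rps4l, every tea library lay below every saline library, against 7.67% of all genes, and in 0 members did every tea library lie above, against 3.28%. Rps2 had a log2 fold change of 1.60 ± 1.12 that rested on JHHCGC_7, with 380.9 CPM there, against 21.1 and 8.86 CPM in the other tea libraries and 43.2, 50.4 and 45.1 CPM in saline libraries. Without JHHCGC_7 the fold was -1.59.

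Tea against capsule of set C shares the capsule libraries with the comparison above, and its folds are the other side of the same values. Positive folds were 77 of 86, with a median of 0.51 where all genes had -0.02. With 1 library left out the median lay between 0.33 (without FFZRC_24) and 0.89 (without JHHCGC_48), it was 0.34 without JHHCGC_19, and with the mitochondrial share as a covariate it was 0.31 with 66 positive folds. No member was called, against 0.0143% of all genes. At an unadjusted p under 0.05 there were 16 members, 18.6%, all higher in tea, against 3.18% of all genes that were higher and 5.22% in either direction. In 10 members every tea library lay above every capsule library, 11.6% against 4.65% of all genes. Rps29 had 116.1, 113.5 and 44.6 CPM in tea libraries, against 28.5, 38.5 and 32.9 CPM in capsule libraries, with a log2 fold change of 1.46 ± 0.38 (SE, edgeR adjusted p = 0.821). Without the 6 libraries of high mitochondrial share, Rps28 alone was called with a log2 fold change of 1.99 (edgeR adjusted p = 0.0497), against 0.0515% of all genes.

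In set X, ribosomal protein genes had higher levels in tea than in saline libraries on balance, while a smaller share of members than of all genes had a small p in either direction. In tea against saline of set X, 81 of 86 members had a positive fold, with a median of 0.65, or 1.57-fold, where all genes had -0.06. Called members numbered 0, against 0% of all genes, and the smallest adjusted p was 0.158 (edgeR). At an unadjusted p under 0.05 there were 8 members, 9.30%, all higher in tea, against 6.99% of all genes that were higher and 17.1% in either direction. In 3 members every tea library lay above every saline library, 3.49% against 9.55% of all genes. DESeq2 called 3 members, Rps3a3, Rps3a2 and Rpl41, against 5.34% of all genes.

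Rpl41 had the smallest p, with 682.4, 386.7 and 426.2 CPM in tea libraries of set X, against 349.0, 176.6 and 166.5 CPM in saline libraries. The groups did not overlap, and the log2 fold change was 1.11 ± 0.34 (SE, edgeR adjusted p = 0.158). Rps15, at the decoding side of the small subunit head, had 746.3, 459.5 and 520.7 CPM in tea libraries, against 479.2, 231.6 and 185.9 CPM in saline libraries. Its log2 fold change was 0.95 ± 0.39 (SE, edgeR adjusted p = 0.26), and the groups overlapped through NCX_124. The 10 short members had a median of 0.98 and the 71 longer ones of 0.63.

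These set X folds moved with single libraries of both groups. NCX_134 and NCX_147 are of high mitochondrial share, and NCX_124 is not. Cartilage markers summed to 134.13 CPM in NCX_124, against 3.67 and 6.69 CPM in NCX_134 and NCX_147. Lung markers summed to 305.3 CPM in NCX_124, against 1.53 and 1.37 CPM in those libraries. Without JHHCGX_129, a tea library, the median was 0.34, and without NCX_147 it was 0.41. Without NCX_124 the median was 1.27 and Rpl41 alone was called, against 2.48% of all genes. The median was also 1.27 without NCX_124 and FFZRX_139, the 2 libraries of set X with cartilage transcripts. Without the 6 libraries of high mitochondrial share, which leaves NCX_124 as the single saline library, the median was 0.15. No cell type marker was called in this comparison. The 9 colon epithelium markers all had positive folds (median 0.79, 6 at an unadjusted p under 0.05) and summed to 18490 to 21523 CPM in JHHCGX, against 8979.3 to 15174 CPM in NCX. The 7 fibroblast markers all had negative folds (median -1.15, 6 at an unadjusted p under 0.05) and summed to 363.51 to 735.74 CPM in JHHCGX, against 840.38 to 2058.1 CPM in NCX. The 9 smooth muscle markers had a median of -1.04 and overlapping sums, 6868.5 to 18057 CPM in JHHCGX against 7422.4 to 36071 CPM in NCX. Their part in the members' folds was not tested.

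Capsule against saline of set X shares these saline libraries. Positive folds were 85 of 86, with a median of 0.35 where all genes had 0.01. No member was called, against 0% of all genes, and 1 member, Rps3a3, had an unadjusted p under 0.05, against 9.64% of all genes. In 2 members every capsule library lay above every saline library, 2.33% against 6.84% of all genes. Rpl41 had 394.7, 302.6 and 437.9 CPM in capsule libraries, against 349.0, 176.6 and 166.5 CPM in saline libraries, with a log2 fold change of 0.71 ± 0.34 (SE, edgeR adjusted p = 0.525). Without the 6 libraries of high mitochondrial share the median turned to -0.35 and with the share as a covariate it was 0.17. It was 1.02 without NCX_124, 0.55 without FFZRX_238, 0.16 without NCX_134 and 0.10 without NCX_147. All 9 smooth muscle markers (median -1.41, 5 at an unadjusted p under 0.05) and all 7 fibroblast markers (median -0.88) had negative folds and all 9 colon epithelium markers had positive ones (median 0.61), and their part in the result was not tested.

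Tea against capsule of set X gave 77 positive folds of 86 and a median of 0.32, where all genes had 0.00. Without JHHCGX_129 the median was 0.0395 with 48 positive folds, without FFZRX_238 it was 0.14, and without JHHCGX_256 it was 0.52. No member was called and 0 had an unadjusted p under 0.05, against 0% and 5.91% of all genes.

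**Figure D4:**
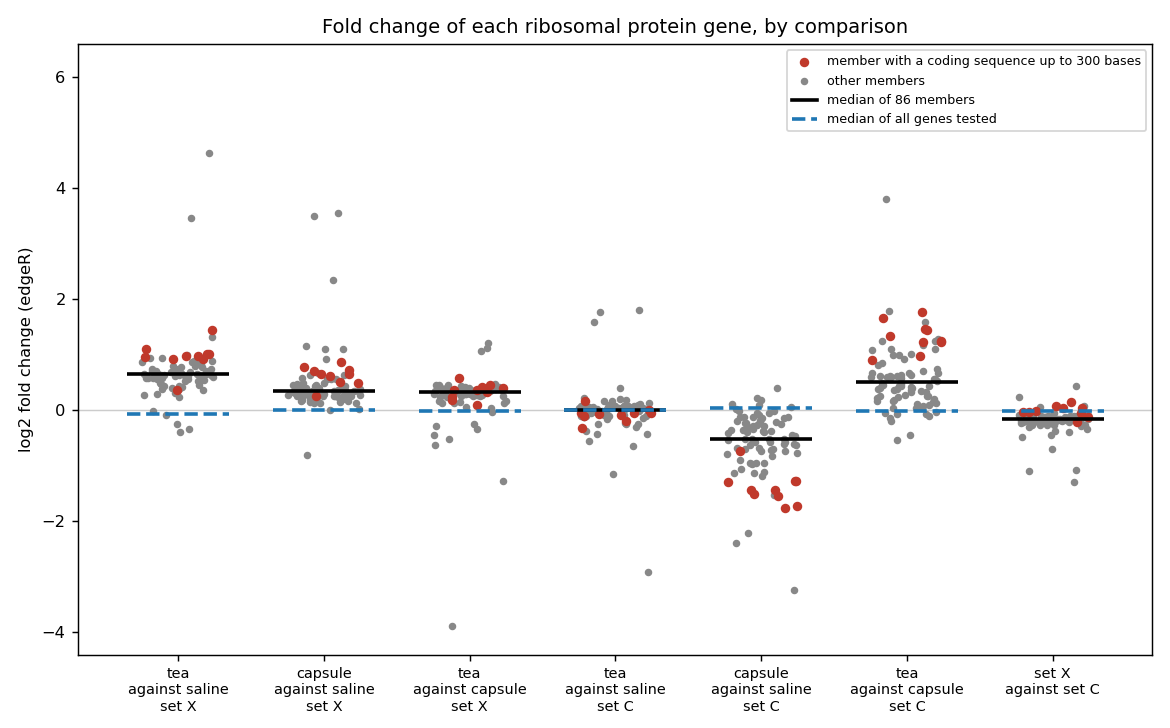
Log2 fold change (edgeR) of the 86 tested members in 7 comparisons; red points are members with a coding sequence up to 300 bases, black lines the median of members, dashed lines the median of all genes tested. The red points lie from -1.75 to -0.73 in capsule against saline of set C and above 0 in the 3 comparisons of set X; no point passed the threshold.

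Set X and set C were compared with the treatments averaged. Of 86 members 78 had a negative fold, with a median of -0.16 where all genes had 0.00. With 1 library left out the median lay between -0.36 (without NCX_124) and -0.047 (without NCC_8), and with the mitochondrial share as a covariate it was -0.0094 with 40 positive folds. Called members numbered 0, against 0.0402% of all genes, and 0 had an unadjusted p under 0.05, against 7.15% of all genes. Rps2 had the smallest p, with a log2 fold change of -1.29 ± 0.60 (SE, edgeR adjusted p = 0.699), which was -0.22 without JHHCGC_7. Rpl7l1, a nucleolar relative of Rpl7, had a log2 fold change of -0.22 ± 0.17, and Rps27l had one of -0.21 ± 0.16.

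The treatment effects were also set against each other between the sets. For the capsule effect, set X minus set C, 84 of 86 members had a positive value, with a median of 0.95 where all genes had -0.04. No member was called, against 0.0134% of all genes, and the smallest adjusted p was 0.438 (edgeR). At an unadjusted p under 0.05 there were 21 members, 24.4%, all with a more positive effect in set X, against 4.52% of all genes in that direction and 6.73% in either. Rpl41 had a difference of 2.0 ± 0.50 (SE, edgeR adjusted p = 0.438), Rpl37 of 1.94 ± 0.59 (SE, edgeR adjusted p = 0.53) and Rps21 of 2.02 ± 0.63 (SE, edgeR adjusted p = 0.532). DESeq2 called Rpl41 alone, against 0.422% of all genes, and limma on log2(FPKM + 1) without a filter called Rpl3l alone, against 0.147%. Rpl3l had 0.690 to 1.07 CPM in NCC, FFZRX_139 and FFZRX_238, and at most 0.258 CPM elsewhere. Skeletal muscle markers summed to 142.66 to 513.72 CPM in those same libraries, and to at most 106.15 CPM elsewhere. The part of such tissue in the value of Rpl3l was not tested. With 1 library left out the median difference of members lay between 0.61 (without NCC_8) and 1.47 (without NCX_124). The median of this difference was 0.09 without the 6 libraries of high mitochondrial share.

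For the tea effect, 85 of 86 members had a more positive value in set X, with a median difference of 0.71 where all genes had -0.07. Called members numbered 0, against 0% of all genes, and 1 member, Rpl41, had an unadjusted p under 0.05, against 6.01% of all genes. Its difference was 1.18 ± 0.50 (SE, edgeR adjusted p = 0.793). With 1 library left out the median lay between 0.30 (without JHHCGC_48) and 1.27 (without NCX_124), and it was 0.31 without JHHCGX_129. The median was 0.0039 without the 6 libraries of high mitochondrial share.

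Over any difference among the 6 groups, no member was called by edgeR, against 0.0447% of all genes, and 7 members (8.14%) had an unadjusted p under 0.05, against 11% of all genes. The smallest adjusted p belonged to Rpl41 with 0.26. DESeq2 called 3 members, Rps2, Rpl29 and Rpl41, against 3.89% of all genes.

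For several members, a large part of the combined count stood in rows of pseudogene copies, or the split between copies differed from library to library. The 242 -ps rows held 11.52 to 15.65% of the combined count of members and -ps rows in every library. In 23 members -ps rows held over 10% of the combined count, and in 7 they held over 50%: Rps2 with 94.9%, Rpl34 with 93.8%, Rpl21 with 92.8%, Rps18 with 83.1%, Rpl35a with 78.5%, Rpl17 with 73.7% and Rpl3 with 55.3%. The sources used here do not say how the authors counted reads that fit several copies, so levels of single copies are uncertain. Whether reads were assigned differently or the copies themselves differed between libraries was not tested.

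Rps2, a small subunit protein near the mRNA entry channel, sits at chr17:24718116-24721926 and had 5.28 to 380.9 CPM. Its pseudogene Rps2-ps13 at chrX:52898588-52899469 had 241.3 to 1083 CPM. Summed over the member and all its -ps rows, the level was 324.9 to 1402 CPM, a 4.32-fold range in place of 72.1-fold, beside a median range of 4.08-fold over the members. JHHCGC_7 was high in Rps2 itself, and its sum over copies was 1152 CPM, between 1234 and 362.0 CPM in the other tea libraries of set C. Rps2 itself was lower in every capsule library of set C than in every saline library. The sum over its copies overlapped, with 1171, 1127 and 324.9 CPM in capsule libraries and 687.7, 1402 and 692.7 CPM in saline libraries.

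Rpsa (chr9:120127689-120132369) and the pseudogene Rpsa-ps10 (chr3:150072658-150073542) stood in different proportions from library to library. Rpsa-ps10 had 189.7 to 1415 CPM in 10 libraries and 12.8 to 58.5 CPM in the other 8. In JHHCGX_148 it had 1126 CPM and Rpsa 700.1 CPM, while in FFZRC_5 it had 18.7 CPM and Rpsa 1613.8 CPM. Libraries of both kinds stood in each group except JHHCGC, where all 3 were of the first kind. The SD of log2 CPM was 0.851 for Rpsa alone and 0.712 for the sum over its copies.

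Rps3a2 (chr14:88123017-88123808) and Rps3a3 (chr13:108670603-108671397) are processed copies of Rps3a1 (chr3:86137940-86142702), and both were either high or low in a library. Rps3a2 had 108.0 to 235.3 CPM in 7 libraries and 6.30 to 20.6 CPM in the other 11. Rps3a3 had 108.4 to 207.8 CPM in 7 libraries and 2.59 to 8.725 CPM in the other 11. The 7 were the same for both genes: 2 of JHHCGX, 1 of FFZRX, 2 of JHHCGC, 1 of FFZRC and 1 of NCC, with 0 of NCX. Rps3a1 itself had 426.5 to 1385 CPM, and its level did not separate the libraries in this way. In tea against saline of set X, Rps3a3 had 202.5, 7.12 and 127.5 CPM in tea libraries, against 6.78, 3.40 and 3.35 CPM in saline libraries, with a log2 fold change of 4.64 ± 1.49 (SE, edgeR adjusted p = 0.17).

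**Figure D5:**
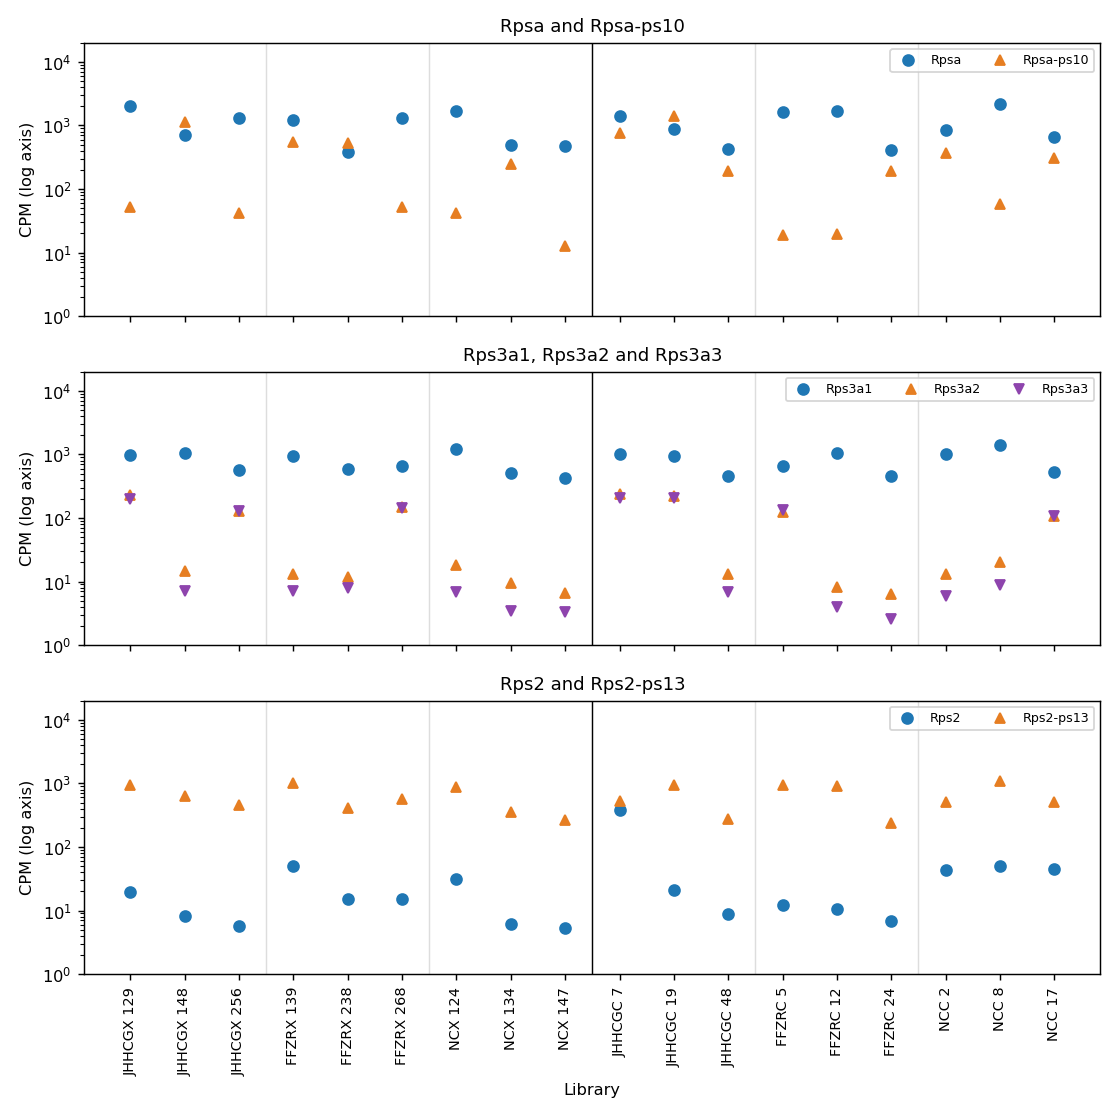
CPM (log axis) of Rpsa and Rpsa-ps10, of Rps3a1, Rps3a2 and Rps3a3, and of Rps2 and Rps2-ps13 in each of the 18 libraries. Rps3a2 and Rps3a3 lie above 100 CPM in the same 7 libraries and at or below 20.6 CPM in the other 11, and Rpsa-ps10 spans 12.8 to 1415 CPM.

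Genes around the ribosome were read from lists chosen with earlier results known, and no gene of them was called in any comparison by edgeR. The 4 ribosome components outside the name rule, among them Fau and Rack1, had folds of the same sign as the members' median: in capsule against saline of set C all 4 had negative folds with a median of -0.63, and in tea against saline of set X all 4 had positive ones with a median of 0.79. Fau, a fusion of a ubiquitin-like protein with a small subunit protein, had a log2 fold change of -0.72 ± 0.27 in capsule against saline of set C (SE, edgeR adjusted p = 0.722).

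The mitochondrial ribosomal proteins, a separate family of which 78 were tested, had a median of -0.07 in capsule against saline of set C, with 29 positive folds, and of 0.26 in tea against saline of set X, with 72 positive folds. The 45 ribosome biogenesis factors had medians of 0.05 and -0.02 in these 2 comparisons, the 15 RNA polymerase I genes of 0.08 and -0.07, the 37 initiation factors of 0.09 and 0.26, the 15 elongation and termination factors of 0.00 and 0.37 and the 24 mTOR pathway genes with Myc of 0.20 and 0.12. The factors that make and run ribosomes had medians between -0.07 and 0.37 on the log2 scale where the cytosolic ribosomal proteins had -0.52 and 0.65.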

How the data were processed

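Libraries were made with oligo(dT) beads from total RNA, per the labels' protocols. The submitters' processing notes name cutadapt 1.9, HISAT2 2.0.4, StringTie 1.3.4d and edgeR without saying what each did. The authors deposited 1 table, with whole-number counts and FPKM side by side for the 18 libraries, per the file headers. The length behind FPKM was taken as the median over libraries of the length implied by count, FPKM and library total. Although a human build is listed in the labels, identifiers were mouse ones: 76 of the 88 members and 30871 of 33977 rows had the same coordinates in GENCODE M21 (GRCm38), and positions of genes are given as in the table. The sources used here do not say whether counting used strand.

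Counts were tested with edgeR 4.0.16 in R 4.3.3 (TMM scaling, filterByExpr with a minimum count of 10, quasi-likelihood test, Benjamini-Hochberg adjustment over all genes tested, threshold 0.05). Each set of 9 libraries was fitted alone, and all 18 were fitted together for the comparisons across sets. Set C kept 20964 genes, set X 20889 and the joint fit 22380. A standard error here is the size of the log2 fold change divided by the root of its F statistic. The steps were tested on simulated counts. No 2 libraries of a group were copies of each other, with a chi-square per degree of freedom of 61.5 to 1304. The lowest value was that of FFZRC_5 and FFZRC_12, the 2 libraries with the lowest level of short members relative to longer ones. The next lowest was 162.4, for NCX_134 and NCX_147.

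Alternatives were DESeq2 1.42.0, limma 3.58.1 on log2(FPKM + 1) or log2(FPKM + 0.1), other scalings and filters, -ps rows added to members, the mitochondrial share as a covariate, and libraries left out. The members, the gene lists and the tests were chosen with earlier results of these data known. Members named are those with the 4 smallest p of a comparison, the 5 highest and 5 lowest FPKM, paralogs, the 3 largest and 3 smallest SDs and a list of well studied members; the short members, the -ps copies, Rpl30 and Rps18-ps6 were chosen after their values were seen. Coding lengths are those of GENCODE M21 with the stop codon, and promoters are those of RefSeq. 1 member and 1 other ribosome component enter the counts and medians, and their own values are not reported here.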

Additional observations from a re-analysis of the deposited data

Results flagged for a closer look

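Signal stood in rows outside the members: the -ps rows held between 11.52 and 15.65% of the combined count of members and -ps rows in the 18 libraries. No comparison of effects between the sets passed edgeR's test in a member (DESeq2 called Rpl41, and limma without a filter Rpl3l, in the difference of the capsule effect), and groups of 3 libraries are too small to look for single libraries far from the rest.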

How the results depend on the processing

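Counts of called members, 0 in all 10 comparisons by edgeR, differed under some settings. In capsule against saline of set C, 6 members were called by DESeq2, against 1.37% of all genes. Limma called 1 on log2(FPKM + 1) or log2(FPKM + 0.1), against 0.666 and 0.587% of all genes. EdgeR called 7 without the 6 libraries of high mitochondrial share, against 1.01%, and 2 with that share as a covariate, against 0.372%. With 1 library left out it called 0 to 1 (Rpl29, without JHHCGC_48 or FFZRC_24), against 0.123 and 1.1% in those 2 fits. DESeq2 called 3 members in tea against saline of set X, 3 over any difference among the 6 groups and 1 in the difference of the capsule effect. The shares of all genes called there were 5.34, 3.89 and 0.422%. Limma without a filter called 1 in the difference of the capsule effect (Rpl3l), against 0.147% of all genes. Tea against capsule of set C had 1 without the 6 libraries, against 0.0515% of all genes. Tea against saline of set X had 0 to 1 with 1 library left out (Rpl41, without NCX_124, against 2.48% of all genes). The share of counts in NCX was 3.79% without the 6 libraries, which leaves 1 library, against 2.07%. The fold of Rps2 in tea against saline of set C reversed to -0.11 by limma on log2(FPKM + 1), with or without a filter, to -0.19 on log2(FPKM + 0.1), and ranged from -1.59 (without JHHCGC_7) to 2.15 with 1 library left out, and in tea against capsule of set X it was 0.037 with -ps rows added. The cause was not tested. Scaling by library totals alone moved the median of all genes by more than 0.1 in 3 comparisons: to -0.11 in capsule against saline of set C, where members had -0.65, to -0.13 in tea against capsule of set X, where members had 0.22, and to 0.12 in the difference of the capsule effect, where members had 1.03. No paired analysis was possible because replicate numbers are not shared between groups.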

Other observations

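Rpl30, a large subunit protein, varied 36.7-fold between libraries, from 4.44 CPM in FFZRC_24 to 162.9 CPM in JHHCGX_148, with an SD of log2 CPM of 1.48, and its -ps rows held 17.4% of the combined count. Its correlation with the summed level of the other members was 0.622. The pseudogene Rps18-ps6 had 0 CPM in JHHCGX_129 and NCC_8 and up to 201.4 CPM elsewhere, while Rps18 with all its -ps rows had 500.2 and 508.5 CPM in these 2 libraries.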
